A study of Mus musculus with 15 samples.

Results

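Transcripts of the mouse Fc gamma receptors were examined in 15 bone marrow libraries. The members are Fcgr1, Fcgr2b, Fcgr3 and Fcgr4, the shared signalling chain Fcer1g, and the neonatal Fc receptor Fcgrt. They were chosen by gene symbol, and all 6 were found among the 38315 genes of the expression table. Fcgrt is related to MHC class I molecules rather than to the other receptors and is included as a further receptor for IgG.

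The study compared acute myeloid leukaemia (AML) marrow with normal marrow. The AML group held 7 marrow samples of mice with the genotype NUP98-NSD1/FLT3-ITD, which carry a fusion of the nucleoporin gene NUP98 with the histone methyltransferase gene NSD1 together with an internal tandem duplication in the receptor kinase gene FLT3. The controls were wild-type mice, with 4 samples of whole marrow and 4 samples of lineage-negative marrow, which was depleted of mature cells by their lineage antigens. How each genetic change was introduced and which promoter drives it, the age of the mice and any pooling of animals are not given in the sources used here. The labels do not state that the samples came from separate animals, so the p-values measure the spread between these samples.

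Fc gamma receptors bind the constant part of IgG and let myeloid cells, B cells and NK cells respond to antibody-coated targets. The activating receptors encoded by Fcgr1, Fcgr3 and Fcgr4 are held at the surface by the chain encoded by Fcer1g, whose immunoreceptor tyrosine-based activation motif (ITAM) is phosphorylated by Src family kinases and recruits the kinase Syk. The product of Fcgr2b is the inhibitory receptor. It carries an inhibitory motif (ITIM) in its own tail and recruits lipid and protein phosphatases. The receptor encoded by Fcgrt pairs with beta-2 microglobulin and returns IgG and albumin from endosomes to the cell surface.

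The activating and the inhibitory motif can be read in the coding sequences, and both are printed here because the ratio of activating receptors to Fcgr2b is compared between groups. The Fcer1g stretch covers codons 65 to 79 of 86 and that of Fcgr2b covers codons 317 to 322 of 340. The capitals mark the codons of the tyrosines that kinases phosphorylate. Both were read 5′ to 3′ from GRCm38 transcripts.
Fcer1g ITAM: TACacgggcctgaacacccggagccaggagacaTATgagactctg
Fcgr2b ITIM: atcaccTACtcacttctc

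Fcgr2b and Fcgr3 are close paralogs, and their shared sequence bears on how reads could be assigned. Their coding sequences were identical at 85.9% of 781 aligned bases. The other pairs among Fcgr1, Fcgr2b, Fcgr3 and Fcgr4 were identical at 60.5% to 66.2%. The longest run common to Fcgr2b and Fcgr3 was 129 bases, coding bases 278 to 406 of Fcgr2b and 263 to 391 of Fcgr3. In the other pairs the longest run was 9 to 14 bases.
Fcgr2b and Fcgr3 shared run: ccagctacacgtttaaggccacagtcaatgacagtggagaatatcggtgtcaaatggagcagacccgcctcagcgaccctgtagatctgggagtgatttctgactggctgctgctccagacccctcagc
Of all windows of 50 bases in the transcripts, 9.58% of those of Fcgr3 and 4.38% of those of Fcgr2b also occurred in another gene, with 166 windows common to this pair. No such window of Fcgr1, Fcgr4, Fcer1g or Fcgrt occurred elsewhere. Reads within the common stretch could have been split between Fcgr2b and Fcgr3.

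The receptor genes lie in 3 places. In the coordinates of the expression table, Fcgr2b (ENSMUSG00000026656, chr1:170786186-170804116, minus strand), Fcgr4 (ENSMUSG00000059089, chr1:170846489-170857330, plus strand), Fcgr3 (ENSMUSG00000059498, chr1:170878743-170892504, minus strand) and Fcer1g (ENSMUSG00000058715, chr1:171057141-171061934, minus strand) share a stretch of 276 kb. Fcgr1 (ENSMUSG00000015947, chr3:96190225-96201285, minus strand) and Fcgrt (ENSMUSG00000003420, chr7:44742414-44753275, minus strand) stand alone. All 6 are protein coding. The antisense genes Gm38204 and Gm45669 overlap Fcgr2b by 3175 bases and Fcgrt by 5331 bases, and since the strand used in counting is not given in the sources used here, reads in those overlaps cannot be assigned with certainty.

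Fcgr1 is known as a gene induced by interferon gamma in myeloid cells that express the factor PU.1, so its promoter is printed, with letters that match the core of each motif in capitals. The search used TTCNNNGAA, the core of the gamma-activated site, and GAGGAAG, the core bound by PU.1, on both strands and without overlap between the matches. The 250 bases before the RefSeq start of Fcgr1 are chr3:96293970-96294219 on the minus strand of GRCm38.p6, a build whose coordinates differ from those of the table.
Fcgr1 promoter: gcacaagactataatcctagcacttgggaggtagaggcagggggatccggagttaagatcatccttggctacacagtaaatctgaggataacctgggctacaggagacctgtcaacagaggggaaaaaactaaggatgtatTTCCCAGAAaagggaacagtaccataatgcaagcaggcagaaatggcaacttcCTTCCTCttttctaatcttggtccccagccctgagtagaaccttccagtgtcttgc
The first match begins 109 bases before the start and the second, on the opposite strand, 56 bases before it. Fcgr3 and Fcgr4 held the PU.1 letters close to their starts, and these shorter stretches are printed for comparison.
Fcgr3, chr1:171059404-171059420, minus strand: agtccatttcCTTCCTC
Fcgr4, chr1:171018893-171018919, plus strand: aggctatttaCTTCCTCtcttctagtc
The promoters of Fcgr2b, Fcer1g and Fcgrt held neither set of letters in this window. Of 32851 mouse promoters of the same length, 10.6% held GAGGAAG and 7.02% held TTCNNNGAA, so a match is common and is a description of the letters alone.

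Expression was measured by bulk sequencing of total RNA, and values are normalized counts, the estimated reads of a gene divided by the size factor of its library. In units of M (mega) reads, the estimated depth was 20.3 to 35.1 for AML, 11.4 to 17.2 for whole marrow and 20.3 to 28.1 for lineage-negative marrow. Every member was above the value of 3 reads (1.96 to 4.09 normalized counts, counting error alone) in every library, and all 6 passed the filter of at least 10 normalized counts in at least 4 samples. The whole marrow libraries stood apart: 7.12% to 15.7% of genes were at 0, against 23.6% to 41.4% for AML and 35.7% to 41.0% for lineage-negative marrow. The mean of 1785 olfactory, vomeronasal and taste receptor genes ranged from 6.20 to 11.7 for whole marrow, from 0.397 to 3.30 for AML and from 0.320 to 0.453 for lineage-negative marrow. Replicates 5 and 6 of AML had the fewest genes at 0 among the AML libraries, and the counts of members called were 4, 6 and 4 in the 3 comparisons both with and without them. On the deposited scale the median log2 difference of all 18941 genes tested was 0.67 between AML and whole marrow, 0.02 between AML and lineage-negative marrow and 0.59 between lineage-negative and whole marrow. With scaling by the trimmed mean of M values (TMM) these medians were 0.08, 0.01 and 0.02. For this reason the median of all genes is subtracted from each difference as a second value, called relative here. Whole marrow replicate 1 had a normalized total of 1.02e+07, against 1.79e+07 to 1.93e+07 in the others. It was the lowest whole marrow library for every member. Without it, 3165 of 18101 genes were called higher in AML than in whole marrow, beside 5167 of 18941 with it. The median log2 difference was then 0.51 on the deposited scale.

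The labelled sample types were compared with the markers of their cells. The summed level of 8 stem and progenitor markers was 14514 to 19065 for lineage-negative marrow, 1295 to 2469 for whole marrow and 2983 to 5798 for AML. The summed level of 10 neutrophil markers was 976 to 17113 in lineage-negative marrow and 430275 to 1149280 in whole marrow. In AML it was 398909 to 1388620. The sum of 8 monocyte markers was 78708 to 139888 for AML, 17031 to 37086 for whole marrow and 20160 to 30963 for lineage-negative marrow. The sum of 8 erythroid markers was 394 to 31979 in AML and 803535 to 1982110 in whole marrow. In bulk RNA, a change in the number of cells of a type and a change in RNA per cell cannot be told apart.

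In AML against whole marrow, the inhibitory receptor Fcgr2b, the high-affinity receptor Fcgr1, the common chain Fcer1g and the neonatal receptor Fcgrt were higher, while Fcgr3 and Fcgr4 did not pass the test. Against lineage-negative marrow all 6 were higher in AML, and the differences in Fcgr1 and Fcgr4 were the largest of the 6. Calling a gene required an adjusted p under 0.05 (limma on log2 of the normalized count plus 1, Benjamini-Hochberg adjustment over all genes tested) together with a log2 difference of 1 or more in size. Of the 6 members, 4 were called higher in AML than in whole marrow and none lower, where 27.3% of all genes tested were called higher. With TMM scaling it was 3 of 6, beside 6.01% of all genes. The genes called lower made up 11.3% of all on the deposited scale and 15.1% with TMM scaling, so that the split of all calls turned with the scaling.

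**Figure D1:**
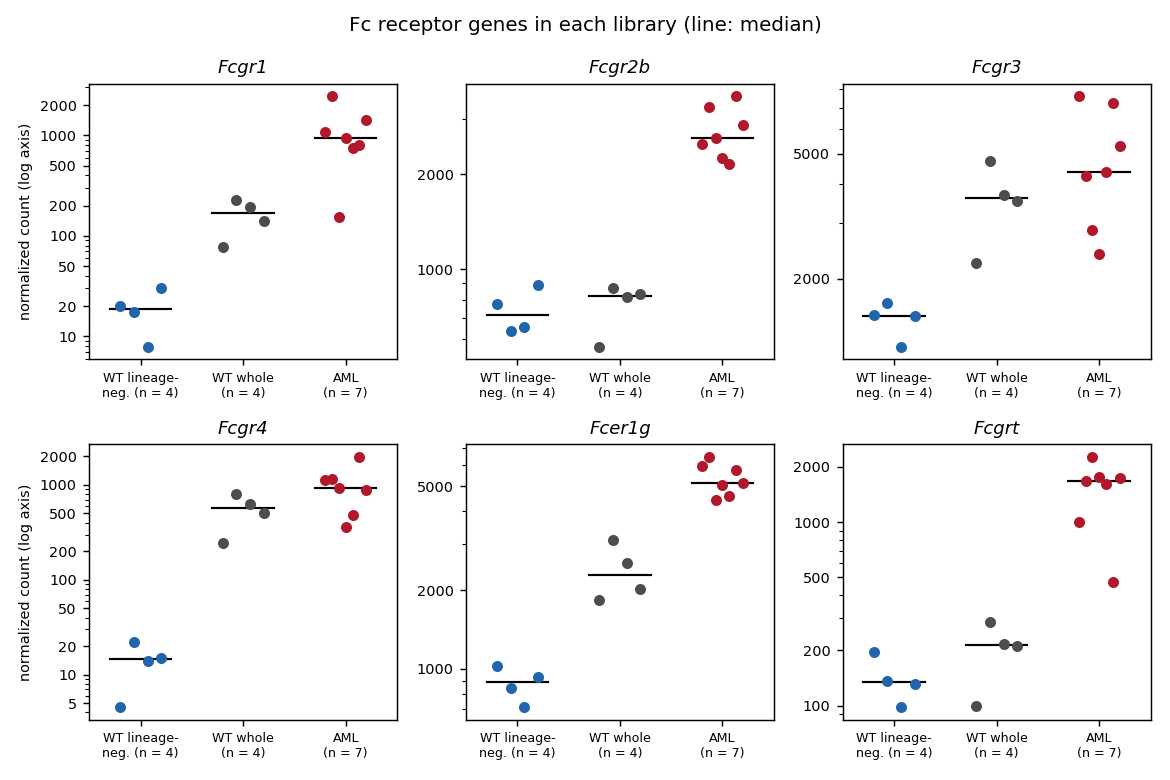
Normalized counts of the 6 genes in each library on log axes whose range differs between panels. Each point is one library of lineage-negative marrow (n = 4), whole marrow (n = 4) or AML (n = 7), and the line is the median of the group. The AML points of Fcgr2b, Fcer1g and Fcgrt lie above all points of both wild-type groups, while those of Fcgr3 and Fcgr4 overlap with whole marrow.

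Among the activating receptors, Fcgr1 encodes the receptor that binds monomeric IgG with high affinity. Its normalized counts in AML ran from 156 (replicate 3) over a median of 944 to 2458 (replicate 2). In whole marrow they were 78.1, 225, 194 and 142. In lineage-negative marrow they were 19.97, 17.6, 7.93 and 30.02. Of the 7 AML libraries 6 exceeded all of whole marrow, and AML replicate 3 lay within the range of whole marrow. The mean level was 1090 ± 717 (SD, n = 7) in AML and 160 ± 64.4 (SD, n = 4) in whole marrow. The log2 difference was 2.52 ± 0.52 (SE), 5.74-fold, with an adjusted p of 3.77e-04 (limma). Relative to the median of all genes it was 1.85, and with TMM scaling 1.92. Against lineage-negative marrow, with a mean of 18.9 ± 9.07 (SD, n = 4), the log2 difference was 5.56 ± 0.52 (limma, adjusted p = 4.13e-08), and no library overlapped. Fcgr1 spanned 15.8-fold within AML, the widest range of the 6 genes, with its low end set by replicate 3 alone. The other 6 AML libraries ran from 750 to 2458. Over all 7, with no library left out, Fcgr4 spanned 5.47-fold and Fcgrt 4.81-fold. The SD over all 7 was 65.8% of the mean for Fcgr1, the largest share of the 6 genes, and 53.6% for Fcgr4.

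Fcgr3 encodes the low-affinity activating receptor of neutrophils, monocytes, macrophages and NK cells. Its AML values ran from 2392 (replicate 4) over a median of 4376 to 7612 (replicate 1). Whole marrow held 2242, 4727, 3694 and 3535. The AML libraries therefore lay on both sides, with 3 of 7 above every whole marrow library. Lineage-negative marrow held 1533, 1674, 1219 and 1520, below every AML library. Between AML and whole marrow the log2 difference was 0.39 ± 0.28 (SE) with an adjusted p of 0.229 (limma) and a 95% interval of −0.19 to 0.97. The sign depended on the scaling, since the value was −0.28 relative to all genes and −0.21 with TMM. Against lineage-negative marrow the difference was 1.61 ± 0.28 (limma, adjusted p = 9.59e-05).

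Fcgr4 encodes the activating receptor that binds IgG2a and IgG2b and is found on neutrophils and monocytes. Its values in AML ran from 361 (replicate 4) over a median of 922 to 1973 (replicate 6). In whole marrow they were 244, 796, 634 and 508. In lineage-negative marrow they were 4.54, 22.03, 14.1 and 15.01, so that Fcgr4 was close to the limit of detection there and far above it in the other groups. The log2 difference between AML and whole marrow was 0.79 ± 0.43 (SE), with an adjusted p of 0.112 (limma) and a 95% interval of −0.10 to 1.68, and 0.12 relative to all genes. Without AML replicate 4 it was 1.00 with an adjusted p of 0.0377 (limma), which passed both thresholds. Against lineage-negative marrow the difference was 6.03 ± 0.43 (limma, adjusted p = 1.14e-09), a 65.4-fold change that was the largest of any member in any comparison.

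Fcer1g, the chain that carries the ITAM printed above, also serves the IgE receptor and several lectin-like and immunoglobulin-like receptors. It varied least among AML libraries of the 6 genes, from 4440 over a median of 5145 to 6465. The whole marrow values were 1831, 3106, 2547 and 2025. The lineage-negative values were 1026, 843, 713 and 932. No AML library overlapped with a wild-type library. The mean was 5340 ± 750 (SD, n = 7) in AML and 2377 ± 572 (SD, n = 4) in whole marrow, a log2 difference of 1.19 ± 0.18 (limma, adjusted p = 2.20e-05). Relative to all genes this was 0.51. With TMM scaling it was 0.58 (limma, adjusted p = 0.00393), under the fold threshold, so the call was lost. Against lineage-negative marrow the difference was 2.60 ± 0.18 (limma, adjusted p = 7.58e-10).

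Fcgr2b, which restrains signalling by the activating receptors and is the Fc gamma receptor of B cells as well as of many myeloid cells, ran from 2158 over a median of 2613 to 3539 in AML. Whole marrow held 568, 873, 814 and 832. Lineage-negative marrow held 774.25, 636, 654 and 892. The wild-type groups covered nearly the same range, and all 7 AML libraries lay above it. The log2 difference was 1.83 ± 0.18 (limma, adjusted p = 3.24e-07) against whole marrow, 1.16 relative to all genes and 1.22 with TMM. Against lineage-negative marrow it was 1.88 ± 0.18 (limma, adjusted p = 5.79e-08). The summed level of 8 B cell markers was 500 to 6427 for AML, 4156 to 9012 for whole marrow and 313 to 555 for lineage-negative marrow. All 8 of those markers were lower in AML than in whole marrow, while Fcgr2b was higher.

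Fcgrt, the recycling receptor, had values from 471 (replicate 6) over a median of 1672 to 2268 (replicate 3) in AML. Whole marrow held 99.6, 287, 216 and 210. Lineage-negative marrow held 197, 136, 97.8 and 132. The lowest AML library was above every wild-type library. The log2 difference of 2.84 ± 0.35 (limma, adjusted p = 3.51e-06) was the largest of the 6 against whole marrow, 7.16-fold, and it was 2.17 relative to all genes and 2.24 with TMM. Against lineage-negative marrow it was 3.31 ± 0.35 (limma, adjusted p = 2.43e-07). B2m, which encodes its partner beta-2 microglobulin, was also higher in AML, by 1.26 on the log2 scale against whole marrow (limma, adjusted p = 0.00236, not called with TMM scaling) and by 1.47 against lineage-negative marrow (limma, adjusted p = 9.24e-04).

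Against lineage-negative marrow all 6 members were called higher, with either scaling, where 17.7% of all genes were called higher on the deposited scale and 17.4% with TMM (lower, 12.5% and 12.7%). In all 6 the groups did not overlap, a pattern with AML higher that 17% of all genes tested showed. The median log2 difference of the members was 2.96, beside 0.02 over all genes. Against whole marrow it was 1.51, beside 0.67 over all genes, and 3 of 6 did not overlap, beside 35.8% of all genes. These 2 comparisons share the AML libraries. Compared with lineage-negative marrow, AML had higher calls for 10 of 10 neutrophil, 8 of 8 monocyte, 9 of 10 macrophage, 6 of 8 B cell, 4 of 8 NK cell and 4 of 6 dendritic cell markers, and 1 NK cell marker was lower. Compared with whole marrow, 7 of 8 monocyte markers (4 with TMM) and 5 of 6 dendritic cell markers (4 with TMM) were called higher and none of either list lower. No neutrophil marker was called in either direction, though 1 of 10 was lower with TMM, while 1 of 10 macrophage markers was higher (none with TMM) and 3 were lower with either scaling. The summed level of the 6 dendritic cell markers, which include Flt3, was 1954 to 13817 for AML, 893 to 1443 for whole marrow and 2340 to 2755 for lineage-negative marrow. No marker of these lists was at 0 throughout a group. Their part in the receptor differences was not tested.

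**Figure D2:**
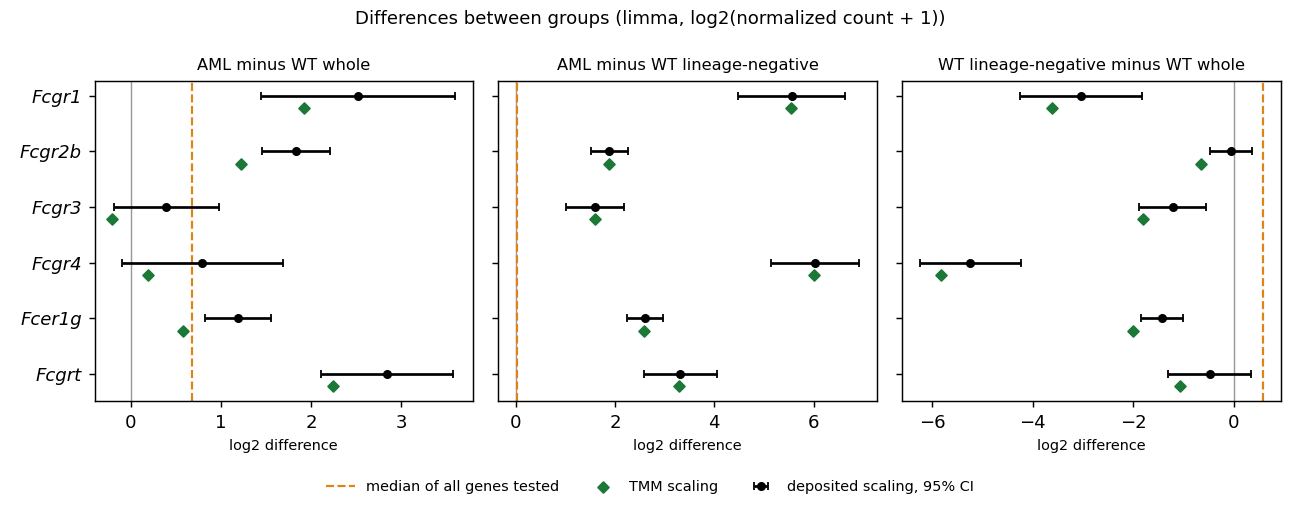
Log2 differences of the 6 genes in the 3 comparisons. Black points with bars are limma estimates on the deposited scale with 95% intervals, green diamonds are the estimates after TMM scaling, the grey line is 0 and the dashed line is the median of all 18941 genes tested. Between AML and whole marrow the diamonds lie about as far to the left of the points as the dashed line lies to the right of 0, and Fcgr3 changes sign, while between AML and lineage-negative marrow both estimates nearly coincide.

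The wild-type groups were also compared with each other. Of the 6 members, 4 were called lower in lineage-negative marrow, beside 17.2% of all genes, and 5 with TMM scaling, beside 23.3%. Fcgr4 was lower by 5.24 on the log2 scale (limma, adjusted p = 8.64e-08), Fcgr1 by 3.04 (limma, adjusted p = 1.56e-04), Fcer1g by 1.42 (limma, adjusted p = 6.68e-06) and Fcgr3 by 1.22 (limma, adjusted p = 0.00236), and in each of these the groups did not overlap, beside 16.6% of all genes. Fcgr2b did not pass the test, with a difference of −0.06 (95% interval −0.48 to 0.37; limma, adjusted p = 0.822) that changed sign without whole marrow replicate 2 (0.0094) or lineage-negative replicate 2 (0.011), and was −0.65 relative to all genes. Fcgrt differed by −0.48 (limma, adjusted p = 0.303) on the deposited scale and by −1.06 with TMM scaling (limma, adjusted p = 0.0201), where it was called lower. In the same comparison 10 of 10 neutrophil, 9 of 10 macrophage, 8 of 8 B cell, 5 of 8 NK cell and 2 of 8 monocyte markers were called lower in lineage-negative marrow (4 of 8 monocyte and 6 of 8 NK cell markers with TMM scaling). Their part in the lower receptor levels was not tested.

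Levels per kilobase of exon allow the genes to be ordered within a group. Fcer1g was first and Fcgr3 second in all 3 groups. In AML they stood at 6109 ± 858 and 2798 ± 1152 normalized counts per kilobase (SD, n = 7), followed by Fcgr4 at 785 ± 421, Fcgrt at 715 ± 279, Fcgr2b at 474 ± 88.8 and Fcgr1 at 421 ± 277. The ranges of these last 4 overlapped, and Fcgr4 and Fcgrt exchanged places when the length of the principal transcript was used. In whole marrow the ranges of Fcer1g (2720 ± 655, SD, n = 4) and Fcgr3 (2045 ± 587) overlapped, but Fcer1g was the higher of the pair in each library. They were followed by Fcgr4 at 434 ± 186, and then Fcgr2b (133 ± 23.9), Fcgrt (96.6 ± 36.8) and Fcgr1 (61.7 ± 24.9). In lineage-negative marrow Fcgr2b (128 ± 20.6, SD, n = 4) came next, before Fcgrt (66.9 ± 19.6), and Fcgr4 (11.1 ± 5.72) and Fcgr1 (7.30 ± 3.50) were last and overlapped. Fcgr4 thus ranked above Fcgr2b in whole marrow and below it in lineage-negative marrow. In AML the pair was nearly tied per kilobase of the principal transcript, at 785 for Fcgr4 and 775 for Fcgr2b.

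Ratios between members within a library show how the receptors stood to each other. They depend on its size factor only through the 1 added to both sides, which weighs most for low values such as Fcgr4 in lineage-negative marrow. In 7 ratios over the 3 comparisons, 13 of 21 exact permutation tests passed an adjusted p of 0.05. The ratios are of normalized counts plus 1 and are not corrected for gene length. The ratio of the activating Fcgr3 to the inhibitory Fcgr2b was 3.94, 5.41, 4.53 and 4.24 in whole marrow. In lineage-negative marrow it was 1.98, 2.63, 1.86 and 1.70, and in AML it ran from 1.06 over a median of 1.85 to 3.04. Every AML library lay below every whole marrow library, while AML and lineage-negative marrow overlapped. The AML ratio was 2.71-fold lower than in whole marrow (log2 difference −1.44, exact permutation p = 0.00303, the smallest that 330 splits allow, adjusted p = 0.0127). Against lineage-negative marrow the log2 difference was −0.28 (exact permutation p = 0.376). Between lineage-negative and whole marrow it was −1.16 (exact permutation p = 0.0286, the smallest of 70 splits, adjusted p = 0.0490).

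The other activating receptors stood differently to Fcgr2b. Fcgr4 to Fcgr2b had ratios of 0.431 to 0.912 for whole marrow, 0.160 to 0.558 for AML and 0.00714 to 0.0361 for lineage-negative marrow. It was lower in AML than in whole marrow by a log2 difference of −1.04 (exact permutation p = 0.0182, adjusted p = 0.0490, with 5 of 7 libraries below all whole marrow) and higher than in lineage-negative marrow by 4.15 (exact permutation p = 0.00303). Fcgr1 to Fcgr2b ran from 0.0599 to 0.7497 in AML and from 0.139 to 0.259 in whole marrow, a log2 difference of 0.69 (exact permutation p = 0.306). Without AML replicate 3, the library with the lowest Fcgr1, that difference was 1.09 with an adjusted p of 0.05 (exact permutation). Relative to Fcgr3, Fcgr1 was higher in all 7 AML libraries than in any whole marrow library, at ratios of 0.0546 to 0.579 against 0.0353 to 0.0528 (log2 difference 2.13, exact permutation p = 0.0121, adjusted p = 0.0424). Fcgr4 to Fcgr3 did not pass the test between AML and whole marrow (log2 difference 0.40, exact permutation p = 0.248), and in lineage-negative marrow it was lower by 4.03 than in whole marrow (exact permutation p = 0.0286, adjusted p = 0.0490).

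**Figure D3:**
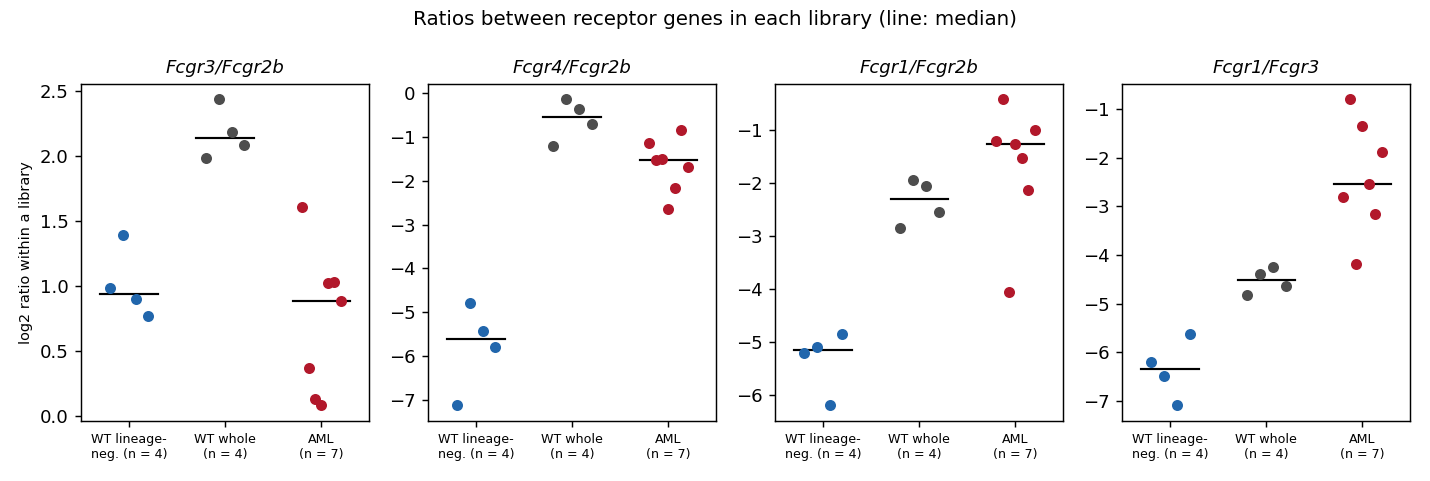
Log2 ratios of normalized counts between pairs of receptor genes in each library, with one panel per pair and axes that differ in range. Points are libraries of lineage-negative marrow (n = 4), whole marrow (n = 4) and AML (n = 7), and lines are medians. In the panel of Fcgr3 to Fcgr2b all AML points lie below all whole marrow points and overlap with lineage-negative marrow, while in the panel of Fcgr1 to Fcgr3 all AML points lie above both.

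Several of these ratio tests rest on few splits, so that leaving out 1 library moved them past the threshold through the adjustment. The number that passed fell from 13 to 6 without AML replicate 2 or 5, to 4 without AML replicate 7 and to 5 without whole marrow replicate 2, 3 or 4. Fcgr3 to Fcgr2b between AML and whole marrow kept its adjusted p under 0.05 in every case but AML replicate 7 (log2 difference −1.46, exact permutation, adjusted p = 0.0545). Fcgr4 to Fcgr2b missed it without AML replicate 2, 3, 5 or 7 or whole marrow replicate 2, 3 or 4 (adjusted p = 0.0538 to 0.0875, exact permutation). Fcgr1 to Fcgr3 missed it without AML replicate 7 or whole marrow replicate 2, 3 or 4 (adjusted p = 0.0545, exact permutation). The ratios between lineage-negative and whole marrow that passed all missed it, at the same adjusted p of 0.0545 (exact permutation), without AML replicate 2, 5 or 7 or whole marrow replicate 2, 3 or 4.

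The chain was compared with the receptors it serves. Fcer1g to the sum of Fcgr1, Fcgr3 and Fcgr4 was 0.574 to 1.36 for AML, 0.484 to 0.714 for whole marrow and 0.492 to 0.659 for lineage-negative marrow. The log2 difference between AML and whole marrow was 0.52 (exact permutation p = 0.0667, adjusted p = 0.0875), and between the wild-type groups it was 0.02 (exact permutation p = 0.914). Against lineage-negative marrow the AML difference was 0.50 (exact permutation, adjusted p = 0.0875), and 0.59 without AML replicate 6 (adjusted p = 0.0467). Fcgrt to B2m was 0.0113 to 0.0176 in whole marrow and 0.00909 to 0.0958 in AML, with 6 of 7 AML libraries above all whole marrow and 1, replicate 6, below. The log2 difference was 1.58 (exact permutation p = 0.0303, adjusted p = 0.0490), and it missed the threshold when any 1 of the AML libraries other than replicate 6, or any 1 of the whole marrow libraries, was left out (adjusted p = 0.0643 to 0.0875, exact permutation). Against lineage-negative marrow it was 1.85 (exact permutation, adjusted p = 0.0636), 2.23 without AML replicate 6 (adjusted p = 0.0333) and 2.41 without lineage-negative replicate 1 (adjusted p = 0.0455).

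Each member was also set against the mean log2 level of the 8 monocyte markers in the same library, as a description. Fcgr3 stood 1.29 ± 0.05 log2 units above that mean in whole marrow (SD, n = 4), 1.12 ± 0.26 above it in lineage-negative marrow (SD, n = 4) and at −0.22 ± 0.99 in AML (SD, n = 7). Fcgr2b stood at −0.88 ± 0.19 in whole marrow, 0.11 ± 0.28 in lineage-negative marrow and −0.95 ± 0.74 in AML, where the median was −1.19 and 1 library stood at 0.65. Fcgrt stood at −2.88 ± 0.19 in whole marrow, −2.31 ± 0.24 in lineage-negative marrow and −1.93 ± 0.40 in AML. Every AML library lay above every whole marrow library on this measure for Fcgrt, while AML and lineage-negative marrow overlapped. Fcgr1 stood at −3.23 ± 0.26 in whole marrow, −2.61 ± 1.40 in AML and −5.23 ± 0.40 in lineage-negative marrow. Fcgr4 stood at −1.49 ± 0.29 in whole marrow and −2.59 ± 1.16 in AML, and Fcer1g at 0.73 ± 0.25 and 0.02 ± 0.67. Against the 10 neutrophil markers, the mean of every member was higher in AML than in whole marrow. There Fcgr3 stood at −2.65 ± 0.30 in AML and −3.25 ± 0.12 in whole marrow, and Fcgr4 at −5.02 ± 0.67 and −6.03 ± 0.21. The direction for Fcgr3 and Fcgr4 thus depended on the marker list. Neither list is independent of the myeloid cells that carry the receptors.

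Relations between the members were examined among the 7 AML libraries. Over all 7, Pearson's r was positive in every pair without Fcgrt (0.07 to 0.87) and negative in every pair with it (−0.75 to −0.20). Of 15 pairs of members, none had an adjusted p under 0.05 for Pearson's r (smallest 0.201, exact permutation) or Spearman's rho (smallest 0.171). With 7 libraries, this does not show that the members varied independently. The closest pair was Fcgr2b with Fcgr4 (r = 0.87, exact permutation p = 0.0159, and rho = 0.82, exact permutation p = 0.0341). Without the 2 libraries farthest from the median of Fcgr2b, r was 0.76. In each such check the distance was that of the first gene named alone. Fcgr3 with Fcgrt had a negative coefficient that also missed the adjusted threshold (r = −0.75, exact permutation p = 0.0403, and rho = −0.82, exact permutation p = 0.0341). Without the 2 libraries farthest for Fcgr3, r was −0.86. Replicate 6, second highest for Fcgr3 and lowest for Fcgrt, was kept in that last coefficient. Fcgr1 with Fcer1g had r = 0.75 (exact permutation p = 0.0333; rho = 0.82, p = 0.0341), which fell to 0.24 without the 2 farthest libraries and so rests on them.

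The neighbours of the receptors on chromosome 1 were measured too. The stretch from Fcgr2b to Fcer1g holds 13 genes of the table, 11 of them protein coding, and 9 were tested. Sdhc, a subunit of succinate dehydrogenase, and Tomm40l, a mitochondrial import protein, were higher in AML than in whole marrow by 1.07 and 1.17 on the log2 scale (limma, adjusted p = 9.88e-05 and 5.93e-05), and neither was called with TMM scaling. Against lineage-negative marrow their differences were −0.40 and −0.61 and were not called, while the 4 receptor genes of the stretch were all higher. Pcp4l1 fell by 2.60 in the same comparison (limma, adjusted p = 1.65e-04). The difference from lineage-negative marrow was thus not common to the genes of the stretch.

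The genes with the profile most like each member over the 15 samples were found by the root mean square difference of centred log2 values among 11270 genes, where a smaller value is closer. For Fcgr1 they were the interferon-inducible genes Ifi204 (0.46), Ifi207 (0.52) and Ifi27l2a (0.60). For Fcgr2b they included Kcnk6 (0.18) and H2-D1 (0.24). For Fcgr3 they were Tnfsf14 (0.19), Tcn2 (0.19) and G6pdx (0.21). Fcgr4 had no gene as close, with Bmpr1a (0.76), Cldn1 (0.77) and Gm49339 (0.79). For Fcer1g they were Sat1 (0.17), Sirpa (0.21) and Sp140 (0.23), and for Fcgrt the lectin gene Clec10a (0.28), Dusp22 (0.30) and the interleukin 10 receptor gene Il10ra (0.32). Among the members the closest pair was Fcgr2b with Fcer1g (0.53), and the farthest was Fcgr2b with Fcgr4 (2.14).

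Downstream of the receptors, the kinases, adaptors, effectors and inhibitors of ITAM signalling were compared as lists. Of 7 kinases, 2 were higher in AML than in whole marrow and none lower, with Fyn at a log2 difference of 1.85 (limma, adjusted p = 4.70e-06) and Lyn at 1.27 (limma, adjusted p = 4.28e-05). With TMM scaling 1 was higher and 1 lower. Of all genes, 27.3% were higher and 11.3% lower in that comparison (6.01% and 15.1% with TMM), the shares against which the count of this and of each following list can be read, so 2 of 7 is near the background. Against lineage-negative marrow, where 17.7% of all genes were higher and 12.5% lower, 5 of 7 were higher, with the Src family kinases Fgr at 6.39 (limma, adjusted p = 9.21e-10) and Lyn at 2.39 (limma, adjusted p = 1.40e-08), and Syk, the kinase that binds the phosphorylated ITAM, at 1.37 (limma, adjusted p = 8.41e-06). Fgr ran from 12.3 to 165 normalized counts in lineage-negative marrow, from 1437 to 3138 in whole marrow and from 2801 to 6871 in AML. The median of the 7 kinases against whole marrow was 0.86, beside 0.67 over all genes.

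Of 7 adaptors, 4 were higher in AML than in whole marrow and 1 lower (2 and 1 with TMM scaling). Lat2, a membrane scaffold of myeloid and B cells, was higher by 2.35 (limma, adjusted p = 7.12e-07) and Gab2, which recruits phosphatidylinositol 3-kinase, by 1.71 (limma, adjusted p = 2.24e-06). Blnk, the B cell adaptor, fell by 1.09 (limma, adjusted p = 0.0238). Of 9 effectors 6 were higher, with the kinase subunit Pik3cd at 1.39 and the protein kinase C gene Prkcd at 1.29 (limma, adjusted p = 2.43e-05 and 1.48e-05), but none was called with TMM scaling. The median of the effectors was 1.06 on the deposited scale, 0.39 relative to all genes. Against lineage-negative marrow 3 of 7 adaptors and 5 of 9 effectors were higher and none of either list was lower, with Pik3r5 at 2.90 (limma, adjusted p = 7.29e-09).

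Inhibitors of ITAM signalling, not all of which act through Fcgr2b, were measured through 9 genes. Of these, 7 were higher in AML than in whole marrow and none lower, but with TMM scaling 1 was higher. That one was Inppl1, which encodes the lipid phosphatase SHIP2, at 2.10 on the deposited scale and 1.5 with TMM (limma, adjusted p = 2.24e-06 on the deposited scale). AML marrow held 675 ± 153 (SD, n = 7) normalized counts of it, whole marrow 161 ± 53.4 (SD, n = 4) and lineage-negative marrow 129 ± 29.95 (SD, n = 4). The ubiquitin ligase genes Cblb and Cbl were higher by 1.56 and 1.48 (limma, adjusted p = 1.05e-04 and 2.78e-04). Against lineage-negative marrow 4 of 9 were higher and none lower.

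Of 13 other Fc receptors listed, 8 were tested, and 2 were higher and 4 lower in AML than in whole marrow (none higher and 5 lower with TMM scaling). Against lineage-negative marrow 4 were higher and 2 lower, where Ms4a2 fell by 5.21 and the B cell genes Fcmr, Fcrla and Fcrl5 were higher by 5.08, 5.04 and 4.68 (limma, adjusted p = 1.38e-08, 6.96e-04, 8.76e-06 and 4.33e-05). Each of these 3 B cell genes was at 0 in at least 1 lineage-negative library, so their fitted differences depend on the 1 that was added before taking logarithms. Against whole marrow the subunits of the IgE receptor, Ms4a2 and Fcer1a, fell by 2.63 and 2.52 (limma, adjusted p = 6.59e-05 and 9.96e-04), and the low-affinity IgE receptor gene of B cells, Fcer2a, fell by 2.45 (limma, adjusted p = 2.79e-04). Fcer1g, which is also the chain of the IgE receptor, was higher in the same libraries. AML marrow held 67.0 ± 50.1 (SD, n = 7) normalized counts of Ms4a2, whole marrow 338 ± 86.3 (SD, n = 4) and lineage-negative marrow 1997 ± 455 (SD, n = 4). The summed level of 8 mast cell and basophil markers, which include Ms4a2 and Fcer1a, was 1735 to 7433 for AML, 4543 to 11237 for whole marrow and 24454 to 42656 for lineage-negative marrow, and of these Tpsb2 and Cma1 were at or under the value of 3 reads in AML and whole marrow.

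A list of 13 receptors other than Fc gamma receptors was drawn up as possible partners of Fcer1g, and pairing was not checked for each. By symbol, 11 were found in the table used here, and 10 of these passed the filter on low values. Against lineage-negative marrow 8 were higher in AML and none lower, with Pilrb1 at 5.63 and Pilrb2 at 5.44 (limma, adjusted p = 7.66e-11 and 4.86e-11), paired immunoglobulin-like receptors whose reads may be shared between these near copies. Against whole marrow 3 were higher and 1 lower (1 and 2 with TMM scaling). The interleukin 3 receptor gene Il3ra was higher by 2.17 (limma, adjusted p = 8.50e-07) and the platelet collagen receptor gene Gp6 fell by 3.93 (limma, adjusted p = 3.22e-04; 0 to 14.7 normalized counts in AML), beside 6 megakaryocyte markers whose sum was 81.2 to 508 in AML and 596 to 1696 in whole marrow. The next list held 6 other signalling subunits, all but Hcst with an ITAM. Of these, 2 were higher and 2 lower in AML than in whole marrow (none and 2 with TMM scaling). The B cell receptor chains Cd79a and Cd79b fell by 2.22 and 1.44 (limma, adjusted p = 0.00759 and 0.00262), while the T cell receptor chain Cd3e and the myeloid chain Tyrobp were higher by 1.55 and 1.06 (limma, adjusted p = 0.0128 and 3.60e-04). Against lineage-negative marrow 5 of 6 were higher and none lower, with Cd3e at 3.73, Cd79a at 3.11 and Tyrobp at 2.96 (limma, adjusted p = 6.52e-06, 7.95e-04 and 1.60e-09).

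The last list held 11 genes of factors and cytokine receptors that are known to regulate Fc gamma receptors. All 11 were higher in AML than in whole marrow, and 4 were called with TMM scaling. These 4 were the myeloid transcription factor genes Irf8 at 2.33 (limma, adjusted p = 1.51e-06) and Cebpa at 1.89 (limma, adjusted p = 8.27e-07), the interleukin 10 receptor gene Il10ra at 2.15 (limma, adjusted p = 2.14e-05) and the interferon gamma receptor gene Ifngr1 at 1.70 (limma, adjusted p = 2.95e-06). The median of the list was the highest of the pathway lists against whole marrow. Against lineage-negative marrow 9 of 11 were higher and none lower, with Il10ra at 3.00, Csf2ra, a subunit of the receptor for the growth factor GM-CSF, at 2.37, and Cebpb at 2.27 (limma, adjusted p = 2.78e-07, 6.45e-09 and 2.97e-06). Cebpa, which was called higher against whole marrow, stood at the level of lineage-negative marrow, with 2268 ± 453 normalized counts (SD, n = 7) in AML and 2271 ± 416 (SD, n = 4) there.

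**Figure D4:**
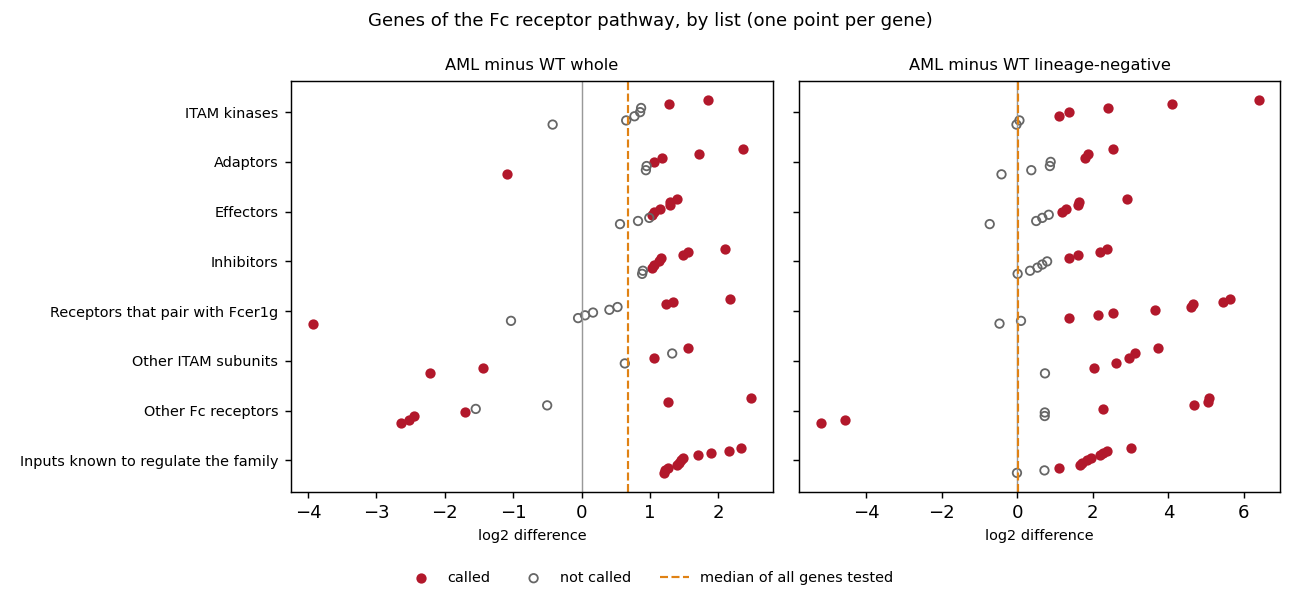
Log2 differences of the genes of 8 lists, one point per gene, between AML and whole marrow and between AML and lineage-negative marrow. The names of the lists are labels and do not describe every gene in a list. Filled red points passed the test, open points did not, and the dashed line is the median of all 18941 genes tested. All 11 genes of the list of known inputs are filled and lie to the right of the dashed line in the left panel, whereas the other Fc receptors lie on both sides of 0 in both panels.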

How the data were processed

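Total RNA was extracted with TRIzol and sequenced after stranded library preparation, per the labels. The unit is a signal, not a count: in the deposited table the authors give estimated reads per gene after division by a DESeq2 size factor of the poscounts type. Partek, STAR, DESeq2 and mm10 are named without versions in the submitters' processing notes, and the annotation is not given in the sources used here. Of 38066 gene identifiers found in a GRCm38 annotation, 861 had the same start there, so the coordinates are those of the table, whose build is unresolved.

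Of the low values of a library, 82.2% to 87.1% were whole multiples of one step (within 0.02 of a step), so whole reads were not recovered. Depth was estimated as the total divided by that step.

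Groups came from the sample titles. Genes with at least 10 in at least 4 samples were kept (18941, with 19374 removed), and log2(value + 1) entered one limma 3.58.1 fit of the 3 groups in R 4.3.3 (mean-variance trend, Benjamini-Hochberg adjustment, two-sided). Because 1 was added, fold changes of low genes are understated. Calls needed an adjusted p under 0.05 and a log2 difference of 1 or more in size. Ratios were compared by two-sided exact permutation tests adjusted over 21. The code was tested on simulated data. Alternatives covered the pseudocount, the filter, TMM and quantile scaling, voom, pairwise fits, a replicate block and leaving out libraries; that without AML replicates 5 and 6 was chosen after seeing the data.

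The members and gene lists were chosen with earlier results of these data known. The text names the members, up to 4 called genes of a list, largest difference first, the neighbours of the 4 chromosome 1 genes, and for each member the 3 genes of mean at least 100 with the most similar profile; some results under this rule are not reported here. Promoters are from RefSeq (GRCm38.p6).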

Additional observations from a re-analysis of the deposited data

Results flagged for a closer look

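Of 39 groups of member values and ratios examined, 2 held a sample far from the others, where chance gives about 1 in 20. In AML, the log2 ratio of Fcgrt to B2m was −6.78 in replicate 6, while the next lowest AML library stood at −4.68. That library had the lowest Fcgrt of the AML group (471 normalized counts) and the highest B2m (51945). In lineage-negative marrow the same log2 ratio was −4.64 in replicate 1, while the nearest other library stood at −6.75. Fcgrt was highest in that library (197 normalized counts) and B2m was lowest (4926).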

How the results depend on the processing

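Over 450 recalculations of member differences, 439 kept their direction and their side of the thresholds. These include fits without a library of the group not compared, where the difference could not move and only its p-value could. The number of members called was 3 to 5 of 6 between AML and whole marrow, 6 in every case against lineage-negative marrow and 4 to 5 between the wild-type groups. Between AML and whole marrow Fcgr3 reversed with TMM (−0.21), quantile scaling (−0.36) and voom (−0.21), and Fcer1g lost its call (0.58, 0.43 and 0.58). Between lineage-negative and whole marrow Fcgr2b reversed without whole marrow replicate 2 (0.0094) or lineage-negative replicate 2 (0.011), with a range of −0.20 to 0.011 over the libraries left out, and Fcgrt gained a call with TMM (−1.06) and quantile scaling (−1.15). The ratio of Fcer1g to the summed receptors between the wild-type groups reversed without whole marrow replicate 2 (−0.0057) or 4 (−0.059) or lineage-negative replicate 1 (−0.044), with a range of −0.059 to 0.13. Leaving out 1 library moved the number of ratios that passed from 13 to between 4 and 15. With replicate number as a replicate block, 4, 6 and 4 members were called, as without it. The labels do not state whether same-numbered samples are paired. Same-numbered samples had correlations of −0.288 to 0.171 over 12 pairs, and 3 of these were the best for their sample. With so few samples per group, these correlations can neither show nor exclude a pairing. Tests on whole reads with edgeR and DESeq2 were not run, since whole reads were not recovered. Every member was above the value of 3 reads in every library.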
